A study of Homo sapiens with 8 samples.

Results

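Of 129536 open chromatin regions (peaks) in human HEK293 cells, 5146 lay at ends of long non-coding RNA (lncRNA) genes and of no other kind of gene. These lncRNA-end peaks were chosen by position: they lay on an autosome, within 1 kb of an end of a RefSeq gene of biotype lncRNA or ncRNA, and over 1 kb from the ends of genes of any other biotype. They made up 3.97% of all peaks and lay near 4522 of 17574 autosomal genes of these biotypes, and 7 of them lay near a gene of biotype ncRNA. Most (4908) lay near 1 such gene and 238 near several, and 3761 of the genes had a single such peak. Beyond the presence of a peak, the rule used no measured value, but it was set with earlier results of these data known.

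Accessibility had been profiled by Omni-ATAC-seq, which cuts and tags open DNA of isolated nuclei with a transposase, in HEK293 cells of genotype eGFP-YAP, a human embryonic kidney line carrying a fluorescently tagged YAP. In 4 libraries the cells had received vehicle and in 4 libraries sorbitol, an osmolyte that draws water from cells, at 0.2 M for 1 h. The library labels put vehicle at the start of this time and not at its end. By these labels, treatment and the 1 h cannot be told apart. Per the series' design text the cells of both groups had been starved of serum first. The sample titles give the parental line, while the genotype field gives eGFP-YAP. The labels state neither whether the line is 1 clone nor whether replicates came from separate cultures. A first number in the library labels was 1 for replicates 1 and 2 of each group and 2 for replicates 3 and 4. Its meaning is not given in the sources used here. The p-values here therefore measure the spread between libraries, which may be technical.

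A lncRNA is a transcript, usually spliced and capped like a messenger RNA, that encodes no known protein. Some lncRNAs build nuclear bodies, some silence neighbouring genes in cis, some carry small nucleolar RNAs or miRNAs in their introns and exons, and for most no function is known. Their promoters are on average weaker and poorer in CpG dinucleotides than those of protein-coding genes, although many start from the same CpG island as a coding neighbour and run the opposite way.

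Promoter sequences bear on the results because the lowered peaks lay more often on CpG-rich starts than the raised ones. RefSeq promoter windows (GRCh38.p14, from 250 bases before to 50 after the start) are shown for 5 lncRNA genes whose start lies under a peak described below. They run 5′ to 3′ on the strand of the gene, and capitals mark CpG dinucleotides. The first pair lay at starts and had the lowest p-values of the start peaks lowered at least 2-fold, LOC124904625 at chr19:7099513-7099812 on the minus strand and LINC01535 at chr19:37251635-37251934 on the plus strand, with 15 CpG each.
LOC124904625: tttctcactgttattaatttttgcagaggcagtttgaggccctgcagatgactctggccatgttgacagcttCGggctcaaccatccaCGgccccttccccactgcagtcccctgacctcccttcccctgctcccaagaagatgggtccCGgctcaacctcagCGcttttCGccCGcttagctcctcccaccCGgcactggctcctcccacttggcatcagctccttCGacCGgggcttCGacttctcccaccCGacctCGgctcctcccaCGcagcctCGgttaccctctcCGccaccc
LINC01535: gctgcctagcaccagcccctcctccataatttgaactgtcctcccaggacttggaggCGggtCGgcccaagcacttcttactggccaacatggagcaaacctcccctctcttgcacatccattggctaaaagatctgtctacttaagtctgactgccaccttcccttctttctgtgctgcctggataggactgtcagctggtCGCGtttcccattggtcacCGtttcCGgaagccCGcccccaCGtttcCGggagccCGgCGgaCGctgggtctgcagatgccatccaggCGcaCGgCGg
The next pair lay under peaks that were higher after sorbitol, LOC124903287 at chr14:22977577-22977876 with 3 CpG and LOC105377979 at chr6:121767129-121767428 with 1 CpG, both on the plus strand.
LOC124903287: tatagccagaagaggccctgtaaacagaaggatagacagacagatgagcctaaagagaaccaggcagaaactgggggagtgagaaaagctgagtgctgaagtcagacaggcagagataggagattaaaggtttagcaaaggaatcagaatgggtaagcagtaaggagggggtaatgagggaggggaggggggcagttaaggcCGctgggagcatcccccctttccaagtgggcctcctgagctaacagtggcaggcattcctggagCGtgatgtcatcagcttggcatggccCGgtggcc
LOC105377979: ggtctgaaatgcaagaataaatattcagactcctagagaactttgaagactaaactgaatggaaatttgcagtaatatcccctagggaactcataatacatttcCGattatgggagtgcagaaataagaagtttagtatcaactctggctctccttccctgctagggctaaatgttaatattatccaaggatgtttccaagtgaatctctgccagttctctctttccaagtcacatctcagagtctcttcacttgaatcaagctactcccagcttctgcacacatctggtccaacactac
The last is that of MIR17HG at chr13:91347437-91347736 on the plus strand, which lay under the strongest lncRNA-end peak and held 42 CpG.
MIR17HG: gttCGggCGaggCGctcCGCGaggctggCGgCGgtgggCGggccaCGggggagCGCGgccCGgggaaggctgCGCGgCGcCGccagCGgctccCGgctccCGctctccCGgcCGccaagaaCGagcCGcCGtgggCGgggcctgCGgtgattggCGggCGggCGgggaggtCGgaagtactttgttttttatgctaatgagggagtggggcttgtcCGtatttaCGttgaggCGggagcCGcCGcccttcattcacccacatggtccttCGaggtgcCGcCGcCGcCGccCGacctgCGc
The GC content of these windows was 61.7% for LOC124904625, 59.3% for LINC01535, 54.0% for LOC124903287, 40.3% for LOC105377979 and 73.0% for MIR17HG.

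Library totals ranged from 11522266 to 19831471 counts in peaks, and Pearson correlations of log2 CPM (the count of a peak divided by the library total and put on one common scale for all libraries) were 0.948 to 0.968 within a group and 0.910 to 0.927 between groups. Vehicle 4 and sorbitol 4 stood apart: on the second principal component, which held 11.5% of the variance, they scored -75.1 and 77.0, while the other libraries lay between -39.4 and 25.7. On the third, which held 9.84%, sorbitol 1 and sorbitol 3 scored -76.2 and 85.7, and the other libraries lay between -16.7 and 4.91. Sorbitol 1 and sorbitol 3 were never left out together. Peaks lay at gene ends of 5 of 6 markers of the kidney and neural lineage of HEK293 cells, with mean levels of 2.2 to 41.4 CPM, and PAX2 had none. Among markers of other cell types, CD3E, ALB, MYH6 and INS had no such peak, while PTPRC (1.16 CPM), APOA1 (18.9 CPM) and VIL1 (9.62 CPM) had one.

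Sorbitol changed lncRNA-end peaks in both directions. At an adjusted p under 0.05 (edgeR's quasi-likelihood F test, Benjamini-Hochberg method, all tested peaks), 665 of the 5146 lncRNA-end peaks were higher after sorbitol and 863 were lower, which is 12.9% and 16.8%. Over all 129487 tested peaks, 29.1% were called, 16.0% higher and 13.1% lower. The called lncRNA-end peaks had median log2 fold changes of 0.74 where higher and -0.53 where lower. Their extremes were 2.10 and -1.68. A fold of 2 or more was reached by 151 raised and 47 lowered peaks, 2.93% and 0.913% of the members, against 5.27% and 0.881% of all tested peaks. Without vehicle 4 and sorbitol 4, left out after the data were seen, 565 were higher and 958 lower. The median over all members was then -0.09 in place of -0.06. With TMM factors from peaks on unplaced contigs, also added with the data in view, 230 were higher and 265 lower. An ATAC count cannot tell apart fewer cells with an open site from less opening in every cell.

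The 4 vehicle and the 4 sorbitol libraries did not overlap in CPM at 770 lncRNA-end peaks with sorbitol higher and at 622 with sorbitol lower, 27.1% of the members. For all tested peaks that share was 26.8%, with 17.3% for sorbitol higher and 9.47% for sorbitol lower. The CPM used here rests on library totals alone, whereas the calls above used TMM factors. The non-overlap counts are therefore no scaling-free check of those calls. With library totals alone, 868 members were called higher and 635 lower. The balance of calls depended on the scaling of the libraries: 43.5% of the called members were higher with factors from the trimmed mean of M-values (TMM), 57.8% with library totals alone, and 73.1% with TMM factors computed from gene-end peaks only, a scaling that was added with the data in view. That last scaling took the all-peak median log2 fold change from 0.01 to 0.18, and that of the lncRNA-end peaks from -0.06 to 0.11. Relative to all peaks, the lncRNA-end median was -0.07 under the 5 scalings with 1 factor per library, which move all peaks alike, and -0.04 with a loess offset that depends on peak strength.

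The 12612 tested peaks at protein-coding gene ends only were lowered far more often, 39.2% of them, and raised in 6.78%. Their median log2 fold change was -0.21. The 100299 tested autosomal peaks over 1 kb from every gene end showed the opposite balance, 8.34% lower and 18% higher, with a median of 0.07. The lncRNA-end median, -0.06 with an interquartile range of -0.31 to 0.23, lay between them. Peak strength also lay between: the median CPM was 4.12 at lncRNA ends, 16.8 at coding ends and 2.62 away from gene ends, and the median widths were 464, 941 and 379 bp. Of the lncRNA-end peaks 29% fell in the 2 strongest deciles of all tested peaks, against 65% of the coding-end peaks.

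Like strength was therefore set by comparing peaks within deciles of edgeR's average log2 CPM and weighting the decile differences by the number of lncRNA-end peaks. At like strength the median log2 fold change of lncRNA-end peaks exceeded that of coding-end peaks by 0.12, 16.8% were lower against 27.1%, and 12.9% were higher against 8.46%. Against peaks away from gene ends the difference was -0.09, with 12.3% lower and 17.6% higher among the latter. In the strongest decile 37.3% of lncRNA-end peaks and 50% of coding-end peaks were lower, and in the weakest decile 3.49% and 3.73%. Of the 665 raised members 157 lay in the 2 weakest deciles and 171 in the 2 strongest, while of the 151 raised at least 2-fold 98 lay in the 2 weakest and 0 in the 2 strongest. Over all 24 alternatives, which include those without vehicle 4 and sorbitol 4, the difference from coding ends stayed between 0.10 and 0.14.

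**Figure D1:**
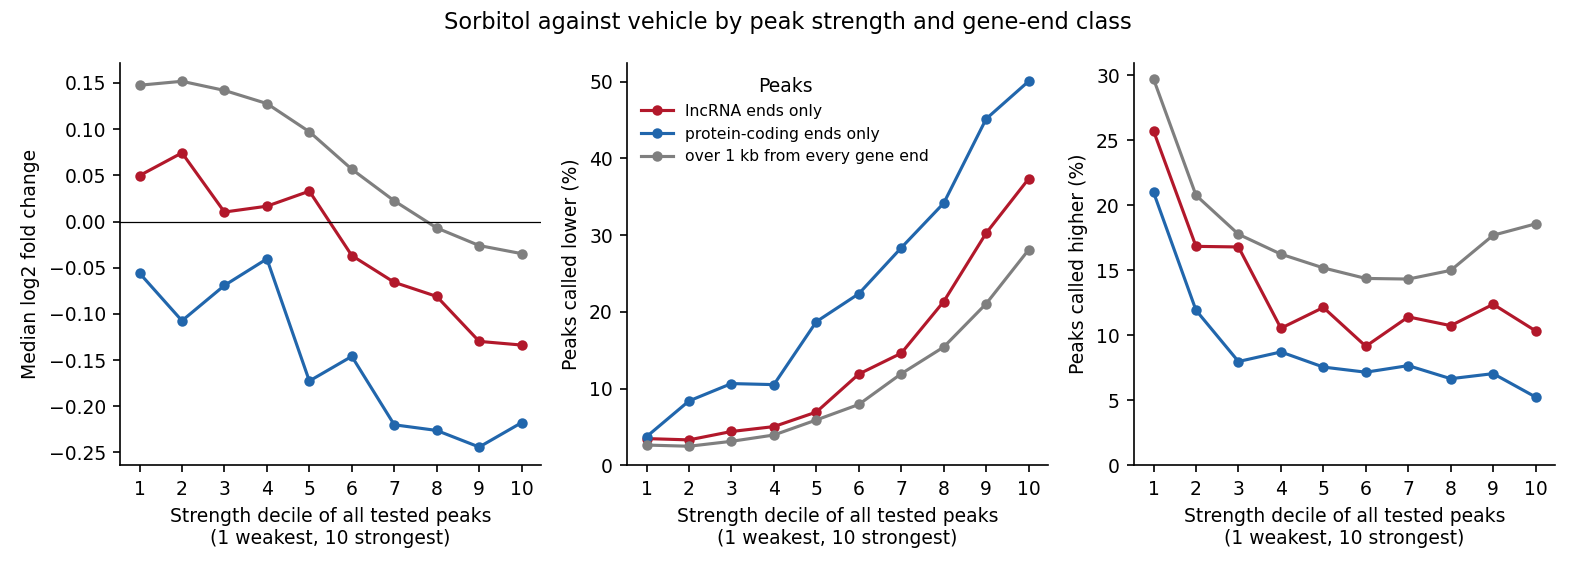
Median log2 fold change (sorbitol against vehicle, left), percent of peaks called lower (middle) and percent called higher (right) in each strength decile of all tested peaks, for peaks at lncRNA ends only (red), at protein-coding ends only (blue) and over 1 kb from every gene end (grey). The lncRNA-end medians lie between those of the other classes in every decile, and the share called lower climbs from 3.49% in the weakest decile to 37.3% in the strongest.

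The same order was seen library by library. For each library, the deviation of each peak's log2 CPM (TMM-scaled) from its mean over all 8 libraries was taken, and the median at lncRNA ends was compared with that at coding ends of like strength. In vehicle libraries 1 to 4 the lncRNA-end minus coding-end value was -0.08, -0.06, -0.05 and -0.08, and in sorbitol libraries 1 to 4 it was 0.07, 0.04, 0.07 and 0.07. All sorbitol libraries lay above all vehicle libraries. Against peaks away from gene ends the values were 0.05, 0.06, 0.04 and 0.02 in vehicle and -0.05, -0.05, -0.05 and -0.03 in sorbitol, again without overlap. These are scores over the members and carry no test.

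The share of all counts that fell in lncRNA-end peaks was 4.63%, 4.67%, 4.71% and 4.54% in vehicle libraries 1 to 4 and 4.51%, 4.55%, 4.52% and 4.67% in sorbitol libraries 1 to 4. The groups overlapped, with 4.64% ± 0.0711 (SD, n = 4) in vehicle and 4.56% ± 0.0760 (SD, n = 4) in sorbitol. Without vehicle 4 and sorbitol 4, left out after the data were seen, they did not overlap. The difference of means was then -0.143 in place of -0.0736 percentage points. Sorbitol 4 minus vehicle 4 was 0.135, of the opposite sign, so leaving them out favoured a gap. Coding-end peaks held 29.3% ± 0.474 of the counts in vehicle and 26.8% ± 0.871 in sorbitol (SD, n = 4), without overlap.

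How lncRNA-end peaks changed varied with their distance from protein-coding genes, a property the selection fixed only at its lower limit of 1 kb. Of the 330 lncRNA-end peaks 1 to 2 kb from the nearest coding gene end, 30.9% were lower and 6.36% higher, and the median log2 fold change was -0.22. At 2 to 5 kb 30.1% of 492 were lower, at 5 to 10 kb 23.5% of 582, and at 10 to 50 kb 15.4% of 1849. Of the 1893 peaks over 50 kb from any coding gene end, 10.1% were lower and 16.2% higher, with a median of 0.01. Those far from coding genes thus had more raised than lowered peaks, and those near them the reverse.

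Peaks at no gene end followed the same gradient. At 1 to 2 kb from a coding end they were lower in 28.6% at like strength, and the lncRNA-end median differed from theirs by -0.00438 and from that of coding-end peaks by 0.02. At over 50 kb they were lower in 5.47% and higher in 21.9%, and the lncRNA-end median differed from theirs by -0.13 and from that of coding-end peaks by 0.18. Members near coding genes and the coding ends themselves were thus close to each other at like strength, and the members that stood apart from coding ends were those far from them.

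**Figure D2:**
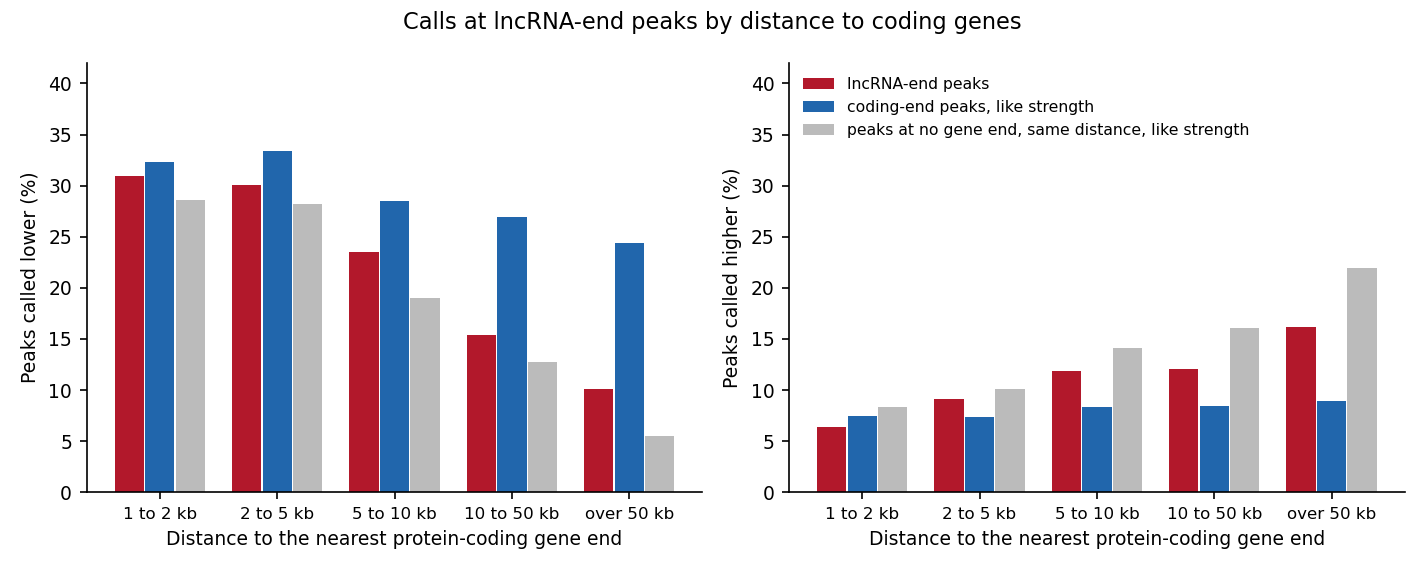
Percent of lncRNA-end peaks called lower (left) and higher (right) by distance to the nearest protein-coding gene end (red bars), beside coding-end peaks of like strength (blue) and peaks at no gene end at the same distance and of like strength (grey). The share called lower at lncRNA ends drops from 30.9% at 1 to 2 kb to 10.1% at over 50 kb, while the share called higher goes from 6.36% to 16.2%.

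Single libraries showed the contrast between near and far members. For the members within 5 kb of a coding end, the value relative to coding ends of like strength was -0.01, 0.01, -0.02 and -0.04 in vehicle libraries 1 to 4 and 0.00475, -0.02, 0.01 and 0.03 in sorbitol libraries 1 to 4, so the groups overlapped. For the members over 50 kb away it was -0.12, -0.10, -0.07 and -0.12 in vehicle and 0.10, 0.07, 0.11 and 0.11 in sorbitol, without overlap. The difference of group means was 0.02 for the near members and 0.20 for the far ones.

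**Figure D3:**
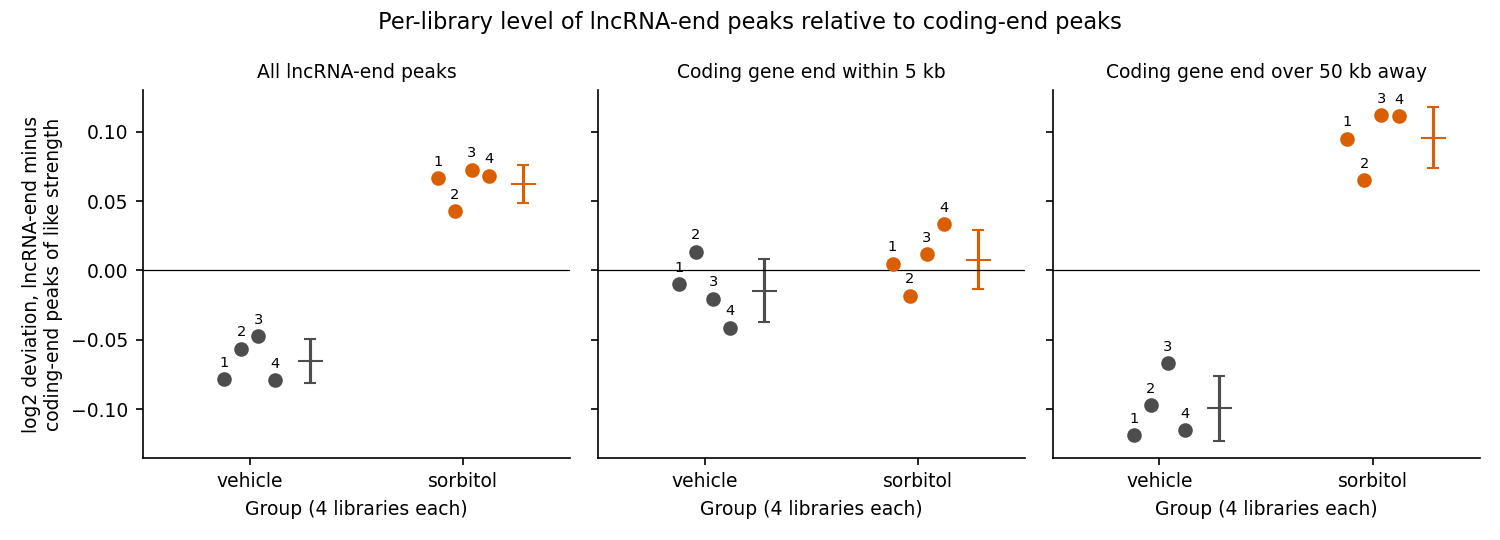
Median log2 deviation of lncRNA-end peaks minus that of coding-end peaks of like strength in each library (points, numbered by replicate) for all members, those with a coding gene end within 5 kb and those with none within 50 kb. Bars give the mean and SD of 4 libraries, and the groups are apart for all members and for the far ones (difference of means 0.20) and overlap for the near ones (0.02).

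Starts and ends of lncRNA genes were told apart with the strand given for genes in the promoter table. Of 2369 members at a start 19.7% were lower and 11.4% higher, and of 1164 at a 3′ end only 12.8% were lower and 15.1% higher. The starts were stronger, with a median of 5.20 CPM against 3.33 CPM, and at like strength the medians of starts and 3′ ends differed by -0.01. For the 1613 other members the strand was not known, and 15.4% of them were lower and 13.5% higher. Members inside and outside coding genes had similar shares: 17.3% of 1739 members inside and 16.5% of 3407 outside were lower.

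By name, the 3071 peaks of genes known only by a LOC number were lower in 15.1% and higher in 13.7%. Those of intergenic lncRNAs (LINC, 725 peaks) were lower in 16.0% and higher in 14.8%, and those of antisense genes (AS, 711 peaks) in 18.7% and 11.4%. Divergent transcripts (DT), named for starting beside a coding promoter, were lower in 26% and higher in 14.6% of 96 peaks, and 12 of 35 host gene (HG) peaks were lower and 4 higher. In the last 100 bp inside the 1 kb limit 11.8% of 280 members were lower and 16.4% higher, and in the first 100 bp outside it 8.90% of 292 similar peaks were lower and 13.0% higher. The 1876 members that overlapped the gene end itself were lower in 24.6% and higher in 10.3%.

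Chromosomes differed widely. The member median ranged from -0.50 on chromosome 19, where 63 of 125 (50.4%) were lower, to 0.13 on chromosome 13, where 58 of 221 (26.2%) were higher. Medians of -0.32 on chromosome 22, -0.30 on chromosome 16, -0.29 on chromosome 17 and -0.28 on chromosome 21 followed that of chromosome 19. Over the 22 autosomes the member medians and the coding-end medians, which come from the same libraries and scaling, had a Spearman rho of 0.94. At like strength the members lay above coding ends on 20 of 22 chromosomes, and below them on chromosome 19 (-0.05) and chromosome 21 (-0.10). Deciles with fewer than 5 peaks of either class on a chromosome were left out. Values of chromosomes with few peaks may therefore rest on part of their members, and the number used was not kept. Without chromosome 19, left out after seeing the data, 660 of 5021 members were higher and 800 lower, and the difference from coding ends at like strength was 0.11.

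Promoter sequence was available for 1377 members whose peak overlapped the window of 1366 lncRNA genes. Their windows held a median of 10 CpG, against 27 under 6836 coding-end peaks, and against 5 and 21 in all 12917 lncRNA and 22198 coding windows of the same length in the table. Of the members 24.3% were lower and 10.4% higher. The share that was lower was 9.09% of 396 with 0 to 4 CpG, 18.7% of 278 with 5 to 9, 38.8% of 250 with 10 to 19, 35.0% of 223 with 20 to 29 and 30.9% of 230 with 30 or more. Coding promoters were lower in 16.0% of 206 with 0 to 4 CpG, 48.4% with 10 to 19, 52.5% with 20 to 29 and 44.7% with 30 or more, so their highest share came 1 class later.

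**Figure D4:**
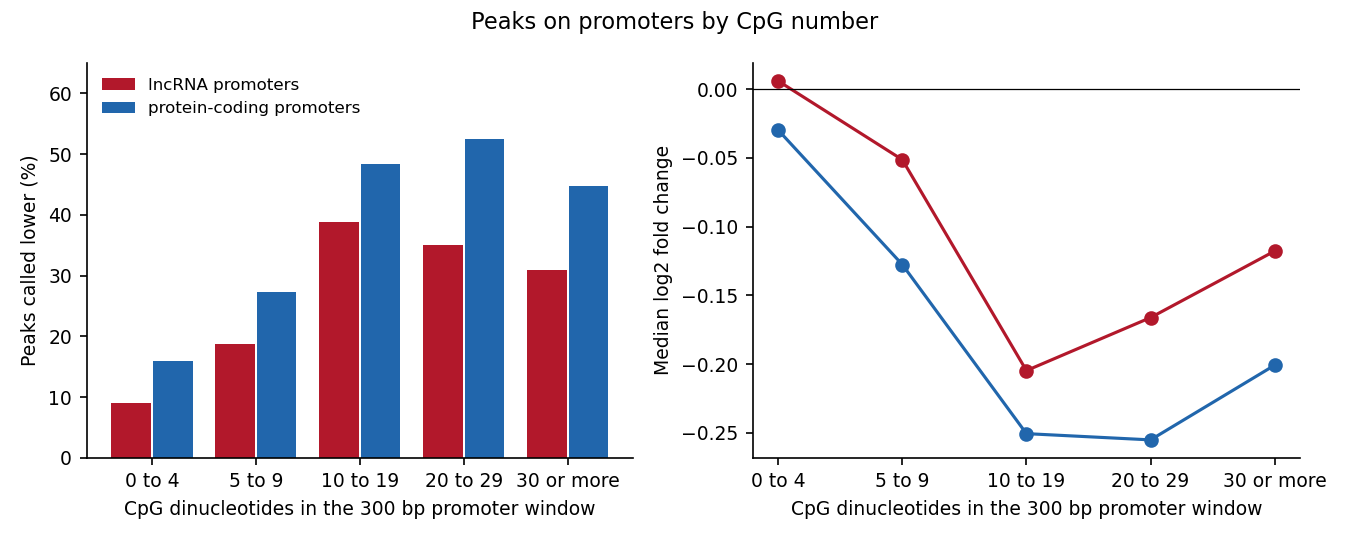
Percent of promoter peaks called lower (left) and their median log2 fold change (right) by number of CpG dinucleotides in the 300 bp RefSeq promoter window, for lncRNA (red) and protein-coding (blue) genes. The lncRNA share is 9.09% with 0 to 4 CpG and 38.8% with 10 to 19, and lies below the coding share in every class.

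Lowered lncRNA promoters had a median of 17.5 CpG and 61.5% GC, raised ones 7 CpG and 53% GC, and those not called 8 CpG and 54.3% GC. CpG-rich promoters also had stronger peaks, which passed the test more often. Within the 2 strongest deciles 41.3% of 516 lncRNA promoters with 10 or more CpG were lower and 26.4% of 178 with fewer, and in the other deciles the shares were 17.6% of 187 and 8.27% of 496. Distance from coding genes moved with CpG, from a median of 20 CpG at 1 to 2 kb to 6 CpG at over 50 kb. With 10 or more CpG, 43.7% of 268 promoters at 1 to 10 kb and 29.7% of 435 at over 10 kb were lower, and with fewer CpG 23.6% of 110 and 11% of 564. At the same strength decile the lncRNA median lay 0.08 above that of coding promoters, and at the same strength and CpG class 0.06 above.

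Short motifs were counted in the windows on both strands, as descriptions of letters and not of binding. The ETS core CCGGAAG was found in 16.8% (56) of the 334 lowered lncRNA promoters, 6.11% of those not called, 4.90% of the raised ones and 5.82% of all lncRNA windows. It was in 24.5% of lowered coding promoters and 12.8% of all coding windows. The GC box GGGCGG was in 50.3% of lowered, 37.8% of raised and 36.1% of uncalled lncRNA promoters, against 25.5% of all lncRNA windows. Coding promoters had the reverse order, with the GC box in 75.7% of lowered and 81.2% of raised ones. TATAAA was least common in lowered lncRNA promoters, with 5.99% of lowered, 16.1% of raised and 12.3% of uncalled promoters and 15.1% of all. The AP-1 motif TGANTCA was in 9.28%, 14.0% and 14.6%, and in 10.4% of all. TGGAAA, the core of the element bound by the osmotic stress factor NFAT5, was in 17.7% of lowered, 25.9% of raised and 22.3% of uncalled promoters and in 25.9% of all, and the TEAD motif GGAATG, of the factors that YAP binds, in 18%, 18.9% and 18%. Of the windows printed above, that of LINC01535 held the ETS core and the GC box, that of MIR17HG the GC box, that of LOC124903287 the TEAD motif and TGGAAA, and that of LOC105377979 the AP-1 motif and TGGAAA. The motifs can share letters with each other and with CpG counts. Their shares were not compared at like strength. The median was 17.3 CPM for lowered, 8.46 CPM for raised and 5.72 CPM for uncalled lncRNA promoters.

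Among the single peaks, 41 lowered and 133 raised members changed at least 2-fold in the TMM-scaled fit without overlap of the groups in CPM. The 6 with the smallest p-values in each direction are described. LINC01535, whose peak (chr19:37251453-37252098) covers its start 2713 bp from an end of the zinc finger gene ZNF383, had 10.7, 11.1, 10.0 and 8.67 CPM in vehicle libraries 1 to 4 and 3.21, 3.82, 3.21 and 3.13 CPM in sorbitol. Every sorbitol library lay below every vehicle library, and the log2 fold change was -1.68 ± 0.15 (SE; edgeR adjusted p = 2.30e-12). It was the largest decrease among the called members, and its promoter window with the ETS core is printed above.

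LOC100996756 had the strongest of these peaks (chr1:146386859-146388293), which overlaps the gene end. It had 97.7, 96.8, 95.1 and 87.8 CPM in vehicle and 50.1, 48.7, 47.5 and 52.1 CPM in sorbitol. The groups were far apart, by -1.01 ± 0.08 (SE) on the log2 scale (edgeR adjusted p = 7.25e-15). The nearest coding gene is PPIAL4H, a member of a repeated family, and reads of near-identical copies could be split there.

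LOC124904625 (chr19:7098763-7099724), at a start near the zinc finger gene ZNF557, went from 37.7 ± 6.06 to 18.2 ± 2.05 CPM (mean ± SD, n = 4), with a log2 fold change of -1.14. LOC107986087 (chr3:53269894-53270716), nearest to DCP1A, a gene of messenger RNA decapping, went from 36.3 ± 1.31 to 19.1 ± 1.80 CPM. LOC105372385 (chr19:36127603-36128648), at a 3′ end near the tubulin cofactor gene TBCB, went from 34.2 ± 2.96 to 18 ± 0.678 CPM, and ZNF225-AS1 (chr19:44112944-44113699), antisense to a zinc finger gene, from 29.6 ± 3.30 to 15.6 ± 0.833 CPM. The last 3 had log2 fold changes of -1.01. With library totals alone, LOC107986087 had -0.92 and LOC105372385, ZNF225-AS1 and LOC100996756 each had -0.93, all under 2-fold. LOC124904625 had -1.06 and LINC01535 -1.60 there. Under the loess offset LINC01535 had -1.65, and the other lowered peaks named here had -0.80 to -0.98. Of these 6 peaks 4 lay on chromosome 19, where zinc finger genes are clustered, as did 13 of the 47 members lowered at least 2-fold.

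The raised peaks were weaker. LOC107986391 (chr5:124961715-124962345), at a 3′ end and 212891 bp from the nearest coding end, that of ZNF608, had 2.50, 2.41, 2.37 and 2.24 CPM in vehicle libraries 1 to 4 and 8.42, 7.09, 8.41 and 6.83 CPM in sorbitol. The groups were apart, by 1.6 ± 0.17 (SE) on the log2 scale (edgeR adjusted p = 2.50e-10). LOC124900733 (chr4:91268467-91269176) went from 3.86 ± 0.607 to 9.38 ± 1.15 CPM, with a log2 fold change of 1.20. Its peak lay inside a coding gene, 336119 bp from the nearest coding end, that of CCSER1. HGC6.3 (chr6:167976464-167976924), near the junction gene AFDN, went from 1.45 ± 0.575 to 4.34 ± 0.582 CPM.

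LOC112268416 (chr2:55824567-55825296), near EFEMP1, which encodes an extracellular matrix protein, had 0.53 to 2.17 CPM in vehicle and 3.74 to 5.43 CPM in sorbitol, and a log2 fold change of 1.63. LOC124903287 (chr14:22977695-22978006), at a start inside a coding gene, went from 1.79 ± 0.298 to 4.83 ± 0.933 CPM. The nearest coding end, 4545 bp away, was that of AJUBA, whose LIM domain protein acts in the Hippo pathway. LOC105370241 (chr13:65835927-65836315), 466519 bp from an end of the protocadherin gene PCDH9, went from 1.6 ± 0.229 to 4.15 ± 0.271 CPM. All 6 passed, at adjusted p-values between 2.50e-10 and 9.67e-06 in edgeR. LOC105377979, the next peak by the same order with a promoter window (chr6:121767296-121767691), went from 1.15 ± 0.349 to 2.93 ± 0.701 CPM, a log2 fold change of 1.28 (edgeR adjusted p = 0.000276).

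**Figure D5:**
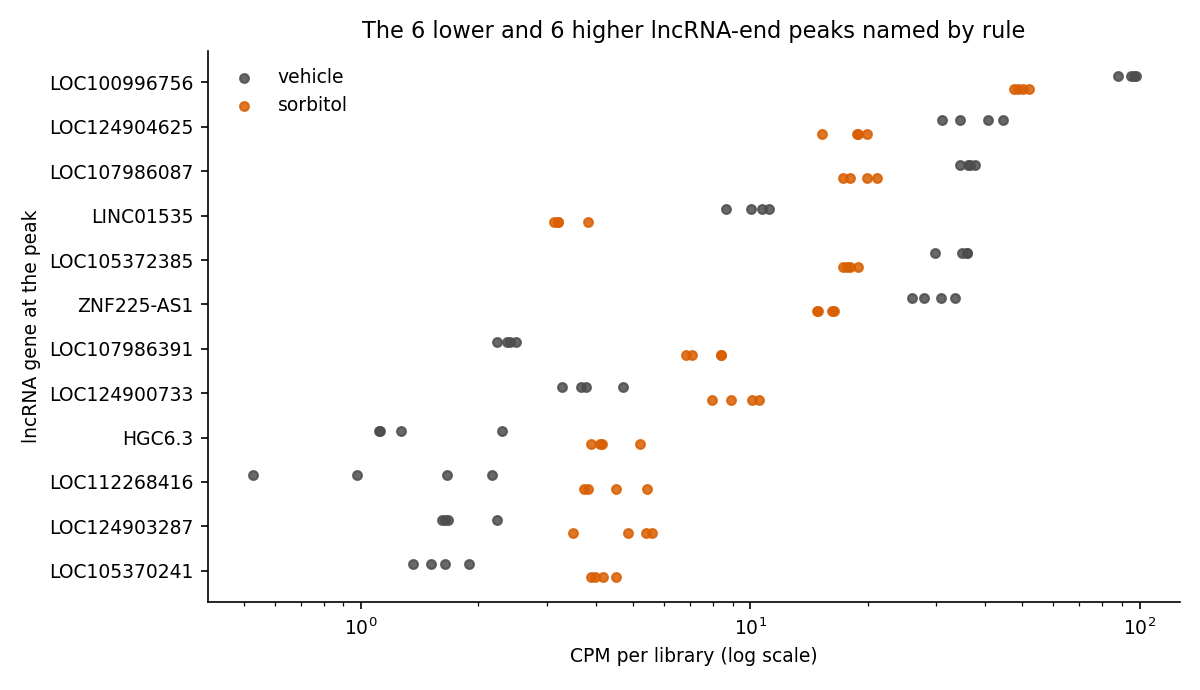
CPM in each library (log axis) at the 6 lowered and 6 raised lncRNA-end peaks with the smallest p-values, vehicle in grey and sorbitol in orange. The lowered peaks start from 8.67 CPM or more in vehicle, the raised ones from 4.71 CPM or less, and the groups do not overlap at any of the 12.

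Of the 4 strongest lncRNA-end peaks 1 was called. MIR17HG, the host of a growth-promoting miRNA cluster, had 149.2, 154.0, 159.8 and 170.2 CPM in vehicle and 165.0, 185.1, 191.3 and 201.5 CPM in sorbitol (chr13:91346990-91349416). The groups overlapped, and the log2 fold change of 0.15 ± 0.07 (SE) missed the threshold (edgeR adjusted p = 0.119). It passed as higher under 5 of 19 alternatives. UBE2D3-AS1 (131.0 and 123.5 CPM, adjusted p = 0.0762 in edgeR) and SLC25A28-DT (122.5 and 114.2 CPM, adjusted p = 0.0514) were not called either. They passed as lower in 4 and 5 of 19 alternatives, among them that without vehicle 4 and sorbitol 4, and had log2 fold changes of 0.07 and 0.05 under the loess offset. LINC01297, at a 3′ end near the repeated gene POTEG, went from 124.4 ± 5.53 to 105.4 ± 9.85 CPM, which is -0.32 on the log2 scale (edgeR adjusted p = 0.00104), and the call was lost in 3 of 19 alternatives, with -0.09 under the loess offset (adjusted p = 0.242). How reads of near-identical copies were assigned there is not given in the sources used here.

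Known lncRNAs were grouped by role. Of 13 lncRNAs listed as nuclear and architectural and known to the gene table, 7 had a member peak, 0 higher and 5 lower. Their median log2 fold change was -0.50, against 0.01 for all tested peaks. The strongest peak per gene was taken, with 8.68 to 81.5 CPM, against a median of 3.02 CPM over all tested peaks. In the 2 strongest deciles the lncRNA-end medians were each -0.13, and 30.3% and 37.3% were lower. NEAT1, the scaffold of paraspeckles, had 12.8, 11.3, 10.9 and 13.7 CPM in vehicle and 9.55, 8.44, 8.32 and 7.73 CPM in sorbitol (chr11:65422665-65423263). No sorbitol library reached a vehicle library, and the log2 fold change was -0.60 ± 0.12 (SE; edgeR adjusted p = 0.000178).

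MALAT1, an abundant RNA of nuclear speckles, was also lower, with 22.6 to 24.9 CPM in vehicle and 15.4 to 18 CPM in sorbitol and a log2 fold change of -0.56 at its start. OIP5-AS1, which buffers miRNAs, and BCYRN1, a translational regulator, had log2 fold changes of -0.50 and -0.54 and passed too. CHASERR, which limits its neighbour CHD2 in cis, and NORAD, which binds Pumilio proteins, had -0.18 and -0.22 and did not pass. KCNQ1OT1, described with the imprinted genes, was the other lowered member. The name of the list is loose, since the roles given here for OIP5-AS1, BCYRN1 and NORAD are not confined to the nucleus. MALAT1, OIP5-AS1, BCYRN1, CHASERR and NORAD were picked after their values were seen, to account for the list.

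Of 14 imprinted lncRNAs 4 had a member peak, with 1 higher and 2 lower and a median of -0.29. HYMAI, expressed from the paternal allele, had 36.8, 34.3, 38.1 and 40.7 CPM in vehicle and 46.7, 50.3, 51.0 and 49.0 CPM in sorbitol. Its peak lay inside a coding gene, 55780 bp from the nearest coding end, that of PLAGL1. The groups were apart, by 0.31 ± 0.08 (SE) on the log2 scale (edgeR adjusted p = 0.00242). KCNQ1OT1, which silences genes of its imprinted domain, was lower (log2 fold change -0.37), as was MEG9 (-0.42), while PEG13 (-0.21) missed the threshold.

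Hosts of small RNAs were mixed. Of 36 hosts of small nucleolar RNAs 10 had a member, with 0 higher and 2 lower and a median of -0.16. SNHG3 had 36.6, 36.2, 37.1 and 36.6 CPM in vehicle and 20.2, 20.9, 21.8 and 23.1 CPM in sorbitol at its 3′ end (chr1:28510451-28511969). This peak lay inside a coding gene, 4408 bp from the nearest coding end, that of RCC1. The groups were widely apart, by -0.85 ± 0.09 (SE) on the log2 scale (edgeR adjusted p = 9.96e-11). Of 33 miRNA hosts 17 had a member, with 2 higher and 5 lower and a median of -0.15. MIR181A2HG (24.8 and 16.5 CPM, log2 fold change -0.67) and MIR210HG (3.30 and 1.89 CPM, -0.88) were lower, and MIR99AHG (1.26 and 2.70 CPM, 1.03) was higher.

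Counts in the remaining lists were small. Of 23 lncRNAs of stress and the p53 response 11 had a member, with 1 higher and 4 lower and a median of -0.22. The lists overlap: among these lowered peaks, that of NEAT1 was also counted as nuclear, and those of MIR34AHG and MIR22HG as miRNA hosts. Of 40 linked to growth and cancer 19 had one, with 0 higher and 3 lower and a median of -0.27, and the call at LINC00665 (-0.84) was lost in 11 of 18 alternatives. Of 48 HOX and developmental lncRNAs 14 had one, with 1 higher and 3 lower and a median of -0.18. HOXA-AS3, antisense in the HOXA cluster, went from 10.4 ± 0.935 to 6.96 ± 1.55 CPM (log2 fold change -0.67), and HOXC-AS1 from 8.13 ± 0.542 to 5.65 ± 1.21 CPM (-0.60). Over the 74 genes of all lists with a member, counted at 1 peak per gene, the strongest, 5 were higher and 20 lower, 6.76% and 27.0%, and the median was -0.22. The shares over all tested peaks were 16.0% and 13.1%, and those over all members 12.9% and 16.8%. No comparison of the lists at like strength was made.

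The most member peaks at 1 gene were 4, at 8 genes. FAM230F and GATA2-AS1, antisense to a blood and endothelial transcription factor gene, had no called peak among their 4, with log2 fold changes from -0.01 to 0.62 and from -0.41 to -0.16. Of the 4 at HOXB-AS2, in the HOXB cluster, 2 were lower, with a range from -0.73 to 0.08. Peaks at 1 gene therefore did not always share a call.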

How the data were processed

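Accessibility was measured in 8 ATAC-seq libraries, 4 vehicle and 4 sorbitol, grouped by their labels. The authors deposited 1 table of raw counts per peak, whole numbers with no normalization. Whether reads or fragments were counted is not given in the sources used here. The submitters' processing notes name Trim Galore 0.6.10, BWA 0.7.17, SAMtools 1.22, MACS2 2.2.9.1, deepTools 3.5.4, Picard, bedtools and DESeq2, with no role for each, and builds hg38 and GRCh38. The table holds peaks with start 0, so starts were read as counting from 0 and are printed from 1.

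Gene ends came from the RefSeq gene table of GRCh38.p14, without exons or UTRs. Its 789 genes on scaffolds or patches, which are listed under chromosome names, were left out. Strand came from the RefSeq promoter table, which held 3069 of the 4522 member genes. Peaks were tested in R 4.3.3 with edgeR 4.0.16 (filterByExpr with minimum count 10 and total 15, TMM factors, quasi-likelihood test, treatment only). Benjamini-Hochberg adjustment took in all 129487 tested peaks at a 0.05 threshold, and every member was tested. The script was tested on simulated data.

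Classes were compared at like strength within 10 bins of average log2 CPM. Alternatives were DESeq2 1.42.0 size factors and its Wald test, library totals, a loess offset (limma 3.58.1), and other filters, thresholds and distances. Further ones were a replicate block, libraries summed by the first number of their labels and leaving out libraries. The members, gene lists and tests were chosen with earlier results of these data known. Peaks were named by p-value among members changed at least 2-fold without overlap (6 in each direction), by mean CPM (the top 4), from the lists where called with a 1.5-fold change or where a list had 5 or fewer genes with a member, and by number of members per gene (up to 3). Counting error is small at strong peaks. A level of 1.15 CPM rests on few reads, and reads copied by PCR, without molecular identifiers, do not count separate molecules.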

Additional observations from a re-analysis of the deposited data

Results flagged for a closer look

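In groups of 4 libraries, 1 library stood far from the other 3 in 4 of the 60 groups examined, where chance gives about 1 in 20, here 3. All 4 were at named peaks. Sorbitol 2 had 3.82 CPM at LINC01535, with the other sorbitol libraries at 3.13 to 3.21 CPM. Vehicle 4 had 2.30 CPM at HGC6.3, with the other vehicle libraries at 1.11 to 1.26 CPM, and 2.24 CPM at LOC124903287, with the others at 1.61 to 1.67 CPM. Vehicle 3 had 132.6 CPM at LINC01297, with the others at 120.9 to 122.7 CPM.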

How the results depend on the processing

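With each library left out once there were 1227 to 1538 called lncRNA-end peaks, 529 to 629 higher and 698 to 909 lower, a median log2 fold change of -0.0826 to -0.0507, a difference from coding ends at like strength of 0.114 to 0.133 and a change in the share of counts of -0.110 to -0.0508 percentage points, against -0.0736 with all libraries. An adjusted threshold of 0.01 left 936 calls, 387 higher and 549 lower. TMM factors from contig peaks, added after seeing the data, left 495 (230 higher, 265 lower) and a median of -0.107, and the cause was not tested. TMM factors from gene-end peaks gave 1192 higher and 439 lower calls. The lncRNA-end median turned to 0.0224 with library totals alone and to 0.114 with gene-end factors, both of which move all peaks, and was -0.0297 among members averaging 50 counts or more and -0.0907 without vehicle 4 and sorbitol 4. A distance of 2000 bp, which takes in more peaks, gave 1001 higher calls, a median of -0.0277 and a share difference of 0.0369, and one of 500 bp gave 0.104 at like strength. No member that passed both here and in an alternative differed in direction between them, and 17 of 28 named peaks kept their call in every one of the 19 refits that tested them.

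Samples with the same replicate number did not deviate together (correlations of -8.04e-05, 0.00671, -0.0308 and -0.133), and the main fit did not pair them. With 4 libraries a group, this check cannot settle whether they were prepared in pairs. With the replicate block 1384 members were called, 594 higher and 790 lower, 1382 of them shared with the fit without it. The median with the block was -0.06, the difference at like strength 0.12, and the paired share differences averaged -0.0736 percentage points. With libraries summed by the first number of their labels, 1542 members were called, 659 higher and 883 lower. The promoter windows cover only lncRNA genes with a RefSeq promoter.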
